A study of Caenorhabditis elegans with 2 samples.

Results

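The Hedgehog-related and Patched-related genes of Caenorhabditis elegans were examined for binding of ZIP-8, a transcription factor of the basic leucine zipper (bZIP) class. The 85 members were chosen by gene name among the 19973 protein-coding genes on the nuclear chromosomes in the Ensembl annotation. They comprise 31 grl, 24 ptr, 16 grd and 10 wrt genes with ptc-1, ptc-3, hog-1 and che-14. The families were taken up with earlier results of these data known, the strong ptr-18 peak among them, and bound members were selected on measured peak summits. The counts and signals of bound members are therefore descriptions, and no test was made on them. A member was called linked to a peak when the peak's summit lay from 2000 bp upstream of the gene start to the gene end.

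The study mapped DNA bound by the tagged factor with chromatin immunoprecipitation and sequencing (ChIP-seq). Whole embryos of mixed stages and both sexes came from strain OP327, genotype unc-119(ed3) III; wgIs327, an insertion that carries zip-8 fused to eGFP. All data belong to 1 group of 2 biological replicates, and the labels do not say whether their biosamples were separate cultures. The labels give neither the promoter of the fusion nor the state of the chromosomal zip-8 gene. The main results use the authors' optimal list, which was thresholded by the irreproducible discovery rate. It holds 2634 peaks, 2610 of them on nuclear chromosomes. The 2634 peaks are the same as the top 2634 of the 30000 peaks in the authors' pooled list. The optimal list thus rests on reads of both replicates together, and 81.0% of its nuclear peaks were overlapped in both replicate lists. Signal is the enrichment value of the authors' peak caller, and neither its scale nor the sequencing depth is known. By the same rule zip-8, the tagged gene, was linked to 3 optimal peaks, with a highest signal of 182, and unc-119, the gene mutated in the strain, to 1 of signal 138. The insertion itself carries zip-8 sequence, and whether it adds to the signal at zip-8 or at unc-119 was not tested. Binding in single tissues cannot be told apart in whole embryos, and no untagged strain or second condition was analysed here.

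Hedgehog proteins are secreted ligands that act on the membrane receptor Patched in many animals, and Dispatched helps to release them from the cells that make them. C. elegans has no canonical Hedgehog but has families of secreted proteins related to it, called warthog (wrt), groundhog (grd) and ground-like (grl), and the Hog-domain protein HOG-1. Its Patched proteins PTC-1 and PTC-3 are joined by a large family of Patched-related (PTR) proteins with a sterol-sensing domain, and several members of these families act in epidermis, molting and apical extracellular matrix. Factors of the bZIP class bind DNA as dimers, at palindromes or near palindromes built from a short site on each strand.

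The sequence at 8 summits is printed first because it shows the kinds of site that recur at these genes. Each line gives the 101 bp centred on the summit, on the plus strand of ce11, and capitals mark a full bZIP site. A full site was a match on either strand to any of 6 patterns of 8 bases. These were TGACGTCA (the CRE palindrome), TGACGTAA (CRE-like), TTGCGCAA (the C/EBP palindrome), TTACGTAA (the PAR palindrome), TGATGCAA (the C/EBP-ATF composite) and TGACGCAA (the C/EBP-CRE hybrid).
ptr-18, intron 1, chrII:12966424-12966524: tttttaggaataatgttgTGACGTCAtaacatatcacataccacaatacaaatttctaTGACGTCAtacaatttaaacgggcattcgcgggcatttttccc
ptr-18, intron 3, chrII:12969642-12969742: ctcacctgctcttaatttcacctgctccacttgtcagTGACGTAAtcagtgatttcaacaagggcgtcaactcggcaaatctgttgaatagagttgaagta
grl-4, upstream, chrIV:7312240-7312340: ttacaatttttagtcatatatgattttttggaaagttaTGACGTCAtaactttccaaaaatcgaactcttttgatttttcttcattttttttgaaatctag
ptr-25, intron 18, chrIII:10499480-10499580: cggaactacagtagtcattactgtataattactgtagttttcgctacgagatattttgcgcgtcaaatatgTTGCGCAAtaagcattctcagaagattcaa
grd-6, upstream, chrV:9221723-9221823: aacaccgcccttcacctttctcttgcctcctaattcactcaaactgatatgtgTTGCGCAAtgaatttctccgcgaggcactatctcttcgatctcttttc
ptr-16, intron 3, chrV:1168088-1168188: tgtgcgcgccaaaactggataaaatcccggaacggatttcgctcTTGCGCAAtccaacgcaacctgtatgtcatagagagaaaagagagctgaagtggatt
ptr-5, intron 18, chrX:17325097-17325197: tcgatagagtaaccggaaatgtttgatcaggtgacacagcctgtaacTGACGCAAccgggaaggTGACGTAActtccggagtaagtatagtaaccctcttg
ptr-4, intron 1, chrX:6065823-6065923: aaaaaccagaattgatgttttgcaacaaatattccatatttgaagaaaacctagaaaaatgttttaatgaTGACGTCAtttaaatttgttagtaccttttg

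The upper ptr-18 sequence holds the CRE palindrome at 2 places, the grl-4 sequence holds it inside a longer inverted repeat, and the ptr-4 sequence holds it once. The ptr-25, grd-6 and ptr-16 sequences share the C/EBP palindrome. The lower ptr-18 sequence has the CRE-like site, and in ptr-5 a hybrid and a CRE-like site lie 17 bp apart, centre to centre.

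An optimal peak was linked to 20 of the 85 members, or 23.5% with an exact Clopper-Pearson 95% interval of 15.0 to 34.0%, against 11.6% of all protein-coding genes. There were 21 such peaks and 22 links, since grl-29 and grl-30 share a peak while ptr-18 and wrt-9 each have 2. Among Patched-related genes, 9 of 24 ptr genes (37.5%, 18.8 to 59.4%) were linked, and among ground-like genes 8 of 31 (25.8%, 11.9 to 44.6%). A link was found for 1 of 16 groundhog genes (6.25%, 0.16 to 30.2%), 1 of 10 warthog genes (10%, 0.25 to 44.5%) and che-14 alone of the 4 genes outside the numbered families. The intervals cover counting error only, and genes that share a peak or a locus are not independent.

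**Figure D1:**
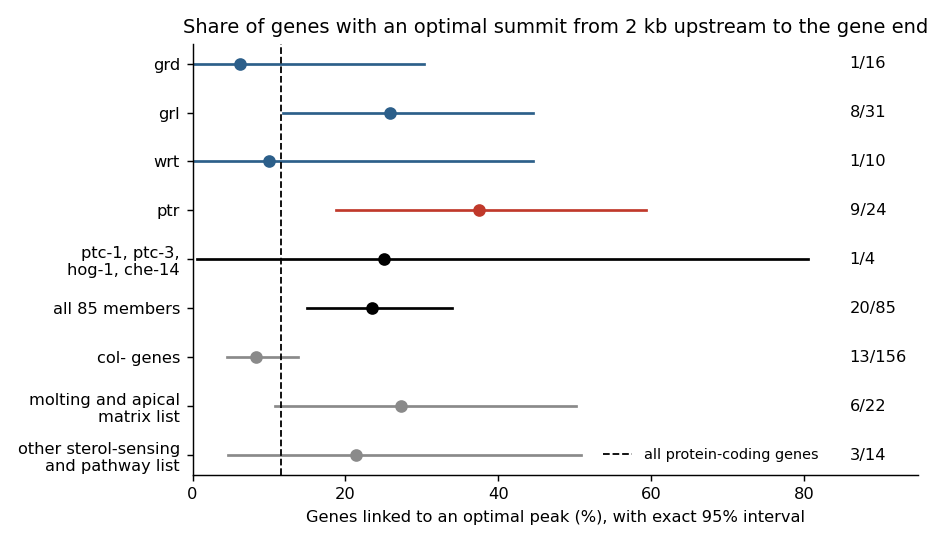
Percent of genes linked to an optimal peak (dots) with exact 95% intervals (lines) for each family and for 3 comparison lists, with the number linked over the number of genes at the right. Blue marks Hedgehog-related families, red the ptr family, black mixed groups and grey comparison lists, and the dashed line is the share of all protein-coding genes. The dots of the ptr and grl families lie to the right of the dashed line, and those of the grd and wrt families to its left. No test was made against the line, and the families differ in window length.

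Longer genes offer more sequence in which a summit can fall, and the families differ in length. The median window, from 2000 bp upstream to the gene end, was 7954 bp for ptr genes, 3301 bp for grl, 3771 bp for grd, 4640 bp for wrt and 4027 bp for all protein-coding genes. Linked members had a median window of 7622 bp and the other members 4185 bp. Per 100 kb of window there were 6.54 optimal peaks for grl, 4.64 for ptr, 3.37 for wrt and 1.46 for grd, against 2.62 for all protein-coding genes. The order of ptr and grl is thus reversed when length is counted. Over all members the density was 4.35 per 100 kb.

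In the pooled list, which is not filtered for reproducibility, 64 members (75.3%) had a summit in their window, beside 68.2% of all protein-coding genes. The pooled list held a peak for 21 of 24 ptr genes, 22 of 31 grl genes, 10 of 16 grd genes and 8 of 10 wrt genes. The 21 members with no pooled peak included hog-1, grd-2, grl-2, wrt-1 and ptr-15. For the canonical Patched genes the highest pooled signal was 5.52 at ptc-1, whose product acts in germline cytokinesis, and 2.81 at ptc-3. Both values lie under the lowest optimal signal of 21.4.

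Signals of the 21 linked peaks ran from 21.6 to 313 with a median of 35.0 and a 95% interval of the median of 24.9 to 67.9. The median of all nuclear optimal peaks was 38.4 with quartiles of 27.5 and 58.8. Signals over 100 were found at 5 of the 21, beside 8.31% of all nuclear optimal peaks, and signals of 30 or less at 9 of the 21, beside 32.03% of all.

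**Figure D2:**
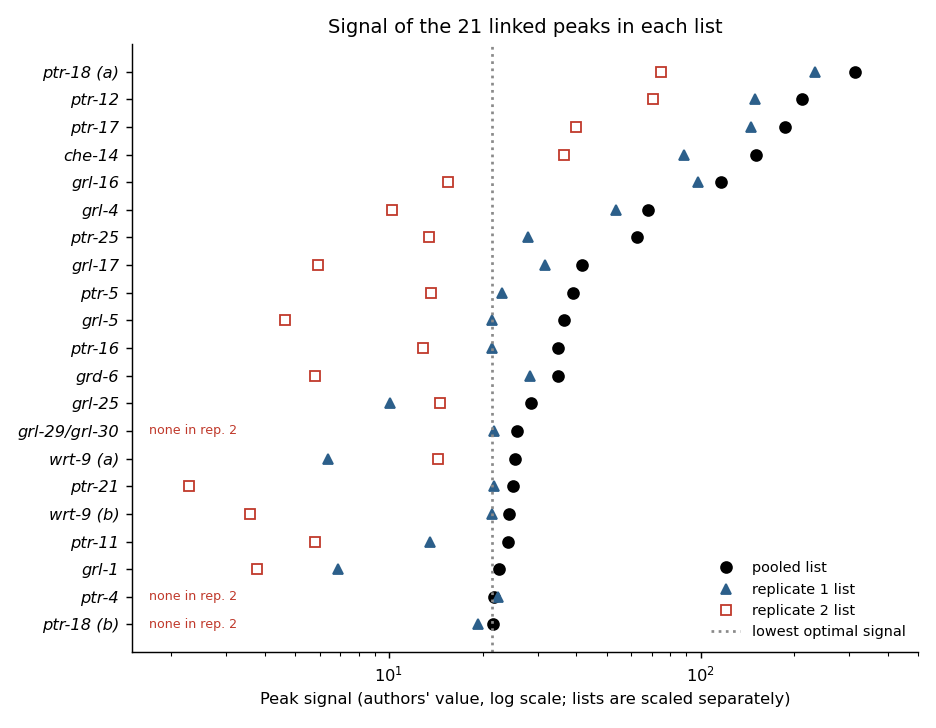
Signal of each of the 21 linked peaks, labelled by gene, in the pooled list (circles), the replicate 1 list (triangles) and the replicate 2 list (squares), on a log axis in the authors' units. The ptr-18 peak in intron 1 is highest in all 3 lists, and 3 peaks have no counterpart in the replicate 2 list.

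Summits lay mostly upstream of ligand-like genes and mostly inside receptor-like genes. Of the 10 peaks at Hedgehog-related genes, 8 lay upstream of a gene start and 2 inside a gene, both in wrt-9. Of the 11 peaks at Patched-related or Dispatched-like genes, 2 lay upstream and 9 inside the gene, all in introns. The median position from the gene start was -537 bp for the first set and 2427 bp for the second, where negative values lie upstream. For the first median the peak shared by grl-29 and grl-30 was placed 752 bp upstream of grl-29, although it lies 298 bp upstream of grl-30. Receptor-like genes also have the longer windows, with a median of 8292 bp against 3765 bp, and the part of length in the difference was not tested. The same shares over all protein-coding genes are not given here, so the contrast is not shown to be particular to these families. No linked summit lay in an exon of the reference transcript of its member, which was the transcript with the longest coding sequence. The ptr-4 summit, however, was the last base of its intron.

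**Figure D3:**
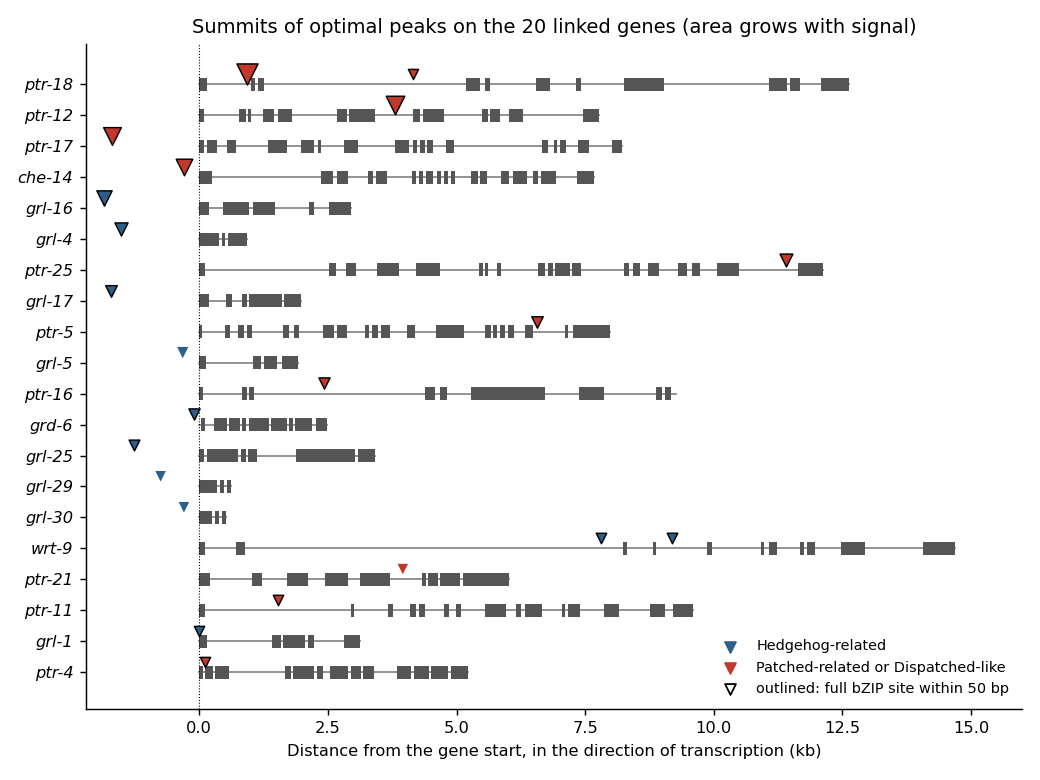
Position of each linked summit relative to the gene start in kb, with negative values upstream, for Hedgehog-related genes (blue) and Patched-related or Dispatched-like genes (red), drawn over the exons of the reference transcript (grey boxes). Marker area grows with signal, and outlined markers hold a full site. Receptor-like genes have 9 of 11 summits inside the gene, and ligand-like genes have 8 of 10 upstream.

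Among the secreted ligand-like proteins, the ground-like family held the highest signals. The peak of grl-16 (WBGene00001725, chromosome I, 572173 to 575120, minus strand) had its summit at 576977, 1857 bp upstream of the start. Its signal was 116 (rank 168), with 98.2 in the replicate 1 list (rank 129) and 15.5 in the replicate 2 list (rank 744). It is the linked summit farthest upstream, and it holds 2 C/EBP palindromes whose centres lie 22 bp apart.

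The peak of grl-4 (WBGene00001713, chromosome IV, 7309838 to 7310760, minus strand) had its summit at 7312290, 1530 bp upstream, with a signal of 67.9 (rank 503). The CRE palindrome at this summit is the centre of a perfect inverted repeat of 36 bp, from 7312264 to 7312299, which can be read in the sequence printed for grl-4. Among the 1571 CRE and C/EBP palindromes at optimal summits, 30 (1.91%) lie in inverted repeats at least this long, and the median is 8 bp, the site itself. The nearest protein-coding start is that of rps-8, a ribosomal protein gene, 1183 bp away. In the replicate lists the signals were 53.7 (rank 374) and 10.3 (rank 1396). The replicate 2 summit lay 131 bp away, and that peak did not cover the optimal summit.

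The peak of grl-17 (WBGene00001726, chromosome V, 13561973 to 13563941, minus strand) lay 1724 bp upstream with a signal of 41.6 (rank 1160) and a hybrid site. Its replicate signals were 31.7 (rank 992) and 5.92 (rank 3229). Its summit at 13565665 is also 198 bp from the start of slrp-1, which the same rule links to it. The deposited peak ends at 13565664, so that the recorded summit lies 1 bp past the peak, and no other optimal peak has this feature. The grl-25 peak (WBGene00001734, chromosome III) had a signal of 28.6 and a hybrid site, 1271 bp upstream, and lay closer to the start of ZK643.6, at 258 bp. In the replicate lists it stood at 10.1 (rank 3532) and 14.6 (rank 821). For both genes the assignment to the ligand-like gene rests on the linking rule and not on the nearest start.

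Summits near a gene start were found at grl-1 and grd-6, and summits far inside a gene at wrt-9. The summit of grl-1 (WBGene00001710, chromosome V) lay 6 bp upstream of the annotated start, with a signal of 22.6, replicate signals of 6.87 and 3.78 and a hybrid site. The summit of grd-6 (WBGene00001695, chromosome V), the sole linked groundhog gene, lay 93 bp upstream with a signal of 34.8, replicate signals of 28.4 and 5.82 and a C/EBP palindrome 6.5 bp from the summit. These summits lie almost at the annotated starts, whereas those of grl-16, grl-4 and grl-17 lie 1530 to 1857 bp upstream. In wrt-9 (WBGene00006955, chromosome X), the sole linked warthog gene, the summits lay in intron 4 at 9184 bp from the start, with a signal of 25.5, and in intron 2 at 7805 bp, with a signal of 24.3. The first has a CRE-like site 0.5 bp from the summit and the second a CRE palindrome 39.5 bp away. The replicates ranked them in opposite order, with 6.39 against 21.4 in the replicate 1 list and 14.4 against 3.59 in the replicate 2 list.

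Of the 3 linked peaks without a full site, 2 belong to ground-like genes. The grl-5 peak (WBGene00001714, 4412748 to 4414663, minus strand) lay 322 bp upstream with a signal of 36.6 and replicate signals of 21.5 and 4.66. The peak between the divergent genes grl-29 (WBGene00001738) and grl-30 (WBGene00001739), 752 and 298 bp upstream of their starts, had a signal of 25.7, with 21.7 in the replicate 1 list and no overlapping peak in the replicate 2 list. All 3 genes lie on chromosome V. Both summits hold TTGCGTAA, or TTACGCAA on the printed strand, which joins the left part of the C/EBP palindrome to the right part of the PAR palindrome and was not among the 6 patterns. It was searched for after these sequences had been seen, and capitals mark it here.
grl-5, upstream, chrV:4414935-4415035: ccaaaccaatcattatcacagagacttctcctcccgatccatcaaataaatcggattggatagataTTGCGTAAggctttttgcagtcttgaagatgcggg
grl-29 and grl-30, between the genes, chrV:3555938-3556038: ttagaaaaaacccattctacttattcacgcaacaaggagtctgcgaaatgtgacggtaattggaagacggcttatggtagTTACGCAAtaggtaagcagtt

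Over all nuclear optimal peaks TTGCGTAA was found within 50 bp of the summit in 307 (11.8%), against 0.19% of equally wide windows centred 250 bp away. Of the 556 peaks with no full site, 282 (50.7%) had it, against 0.36% of their side windows. The third linked peak without a full site, that of ptr-21, has no match to it within 50 bp, and the pattern was chosen from the other two. At grl-5 its centre lay 19.5 bp from the summit, and at grl-29 and grl-30 33.5 bp.

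Among the receptor-like genes, ptr-18 (WBGene00004232, chromosome II, 12965546 to 12978171, plus strand) carried the highest signal of all members. The gene encodes a Patched-related protein that has been connected with keeping neural progenitors of newly hatched larvae quiescent. Its peak spans 12966336 to 12966608 with the summit at 12966474, 928 bp from the gene start, inside intron 1 of 10, an intron of 867 bp. The signal was 313, rank 13 of the optimal list. It was 233 in the replicate 1 list (rank 14) and 74.5 in the replicate 2 list (rank 25), and the replicate summits lay 13 and 4 bp from the optimal summit. The replicate lists thus placed this binding within 13 bp of the optimal summit and at similar ranks, and the optimal list was made from the same reads.

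The ptr-18 summit lies between 2 copies of the CRE palindrome, at 12966442 to 12966449 and at 12966482 to 12966489. Their centres are 28.5 bp to the left and 11.5 bp to the right of the summit and 40 bp from each other, with 32 bp between the copies. The nearest protein-coding start is that of ptr-18 itself, and no other gene was linked to the peak. The window of the gene holds 3 full-site matches in all, and each lies within 50 bp of an optimal summit.

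The third match, a CRE-like site at 12969679 to 12969686, belongs to a second ptr-18 peak in intron 3, an intron of 3926 bp. That summit lay 4146 bp from the gene start with a signal of 21.6, rank 2615 and the lowest of the linked peaks. It also lies in a 5′ untranslated exon of the nested gene Y38F1A.4, 30 bp from its start, and the rule links it to both genes. The replicate 1 signal was 19.4 (rank 1855), and no replicate 2 peak overlapped it. The pooled list has 4 further ptr-18 peaks, with signals between 2.63 and 4.69.

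**Figure D4:**
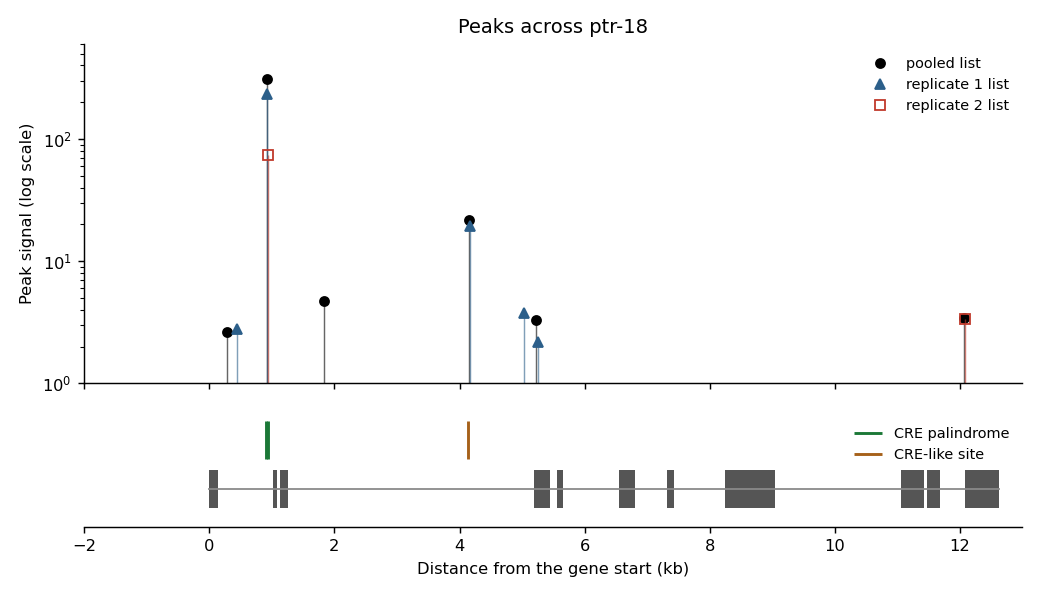
Peaks of the pooled, replicate 1 and replicate 2 lists across ptr-18 by distance from the gene start in kb (signal on a log axis), above the exons of the reference transcript and the 3 full-site matches. The summit at 928 bp in intron 1 carries signals of 313, 233 and 74.5 in the 3 lists, against at most 21.6 at the other pooled peaks of the gene.

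The 5 linked peaks nearest to it in signal were those of ptr-12, ptr-17, che-14, grl-16 and grl-4, from 212 down to 67.9. The ptr-12 peak (WBGene00004226, chromosome I, 2587527 to 2595294, minus strand) had its summit at 2591486 in intron 7 of 12, 3808 bp from the start. Its signal was 212 (rank 40), with 149 in the replicate 1 list (rank 48) and 70.6 in the replicate 2 list (rank 28). As in ptr-18, 2 CRE palindromes lie within 50 bp of the summit, here 33 bp apart. The same intron of 742 bp holds 2 more CRE palindromes that are not within 50 bp of an optimal or pooled summit.

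The ptr-17 peak (WBGene00004231, chromosome I, 12835115 to 12843331, plus strand) had its summit at 12833414, 1701 bp upstream, with a signal of 186 (rank 55). The replicate signals were 145 (rank 56) and 39.9 (rank 121), and 2 CRE palindromes lie 45 bp apart. The summit falls in a coding exon of nhx-8, a sodium/proton exchanger gene, which is also linked to it, while the nearest coding start is that of ptr-17.

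The peak of che-14 (WBGene00000493, chromosome I, 5746633 to 5754306, plus strand), a Dispatched-like gene known for apical secretion in epithelia, lay 302 bp upstream with its summit at 5746331. It had a signal of 150.2 (rank 99), replicate signals of 88.6 and 36.5 (ranks 156 and 150) and a C/EBP palindrome 22.5 bp from the summit.

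Other ptr summits lay deep inside their genes at lower signals. The ptr-25 summit (WBGene00009653, chromosome III, 10488124 to 10500239, plus strand) lay in the last of 18 introns, 11406 bp from the start, with a signal of 62.6 and replicate signals of 28.0 and 13.5. Its nearest protein-coding start is that of rab-33, 4323 bp away. The ptr-5 summit (WBGene00004220, chromosome X), in intron 18 of 19, had a signal of 38.8 with replicate signals of 23.1 and 13.7, and its hybrid site was centred 0.5 bp away. The ptr-16 summit (WBGene00004230, chromosome V) lay in intron 3 of 8 with a signal of 35.0, replicate signals of 21.4 and 12.9, and a C/EBP palindrome 2.5 bp away. These 3 genes each had a peak in both replicate lists.

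The remaining receptor-like genes had signals under 25. The ptr-21 summit (WBGene00004235, chromosome I) lay in intron 5 of 8 with a signal of 24.9 and replicate signals of 21.8 (rank 1598) and 2.28 (rank 10797). The replicate 2 summit lay 233 bp away, and that peak did not cover the optimal summit. The nearest protein-coding start is that of lpr-1, 2723 bp from the optimal summit. The ptr-21 summit has no full site within 50 bp but has 2 hybrid sites within 100 bp. The ptr-11 summit (WBGene00004225, chromosome I) lay in intron 1 of 14 with a signal of 24.1, replicate signals of 13.6 and 5.80 and a CRE palindrome 0.5 bp away. The ptr-4 summit (WBGene00004219, chromosome X) lay 113 bp from the start, at the last base of the first intron of 45 bp, with a signal of 21.8. The CRE palindrome printed for it lies inside that intron, and the peak, from 6065728 to 6066017, also covers the gene start at 6065986. The ptr-4 protein acts in apical matrix and molting, and its peak was in the replicate 1 list (22.5) and not in that of replicate 2.

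Every linked peak was overlapped by a replicate 1 peak, 18 of the 21 also by a replicate 2 peak, and the summit itself lay in a replicate 2 peak for 16. Over all nuclear optimal peaks 99.1% were overlapped in replicate 1, 81.8% in replicate 2 and 81.0% in both. The peaks with no counterpart in replicate 2 were those of ptr-4, of grl-29 with grl-30, and the second of ptr-18. The lists differ in size, with 22803 peaks for replicate 1 and 12222 for replicate 2. Within the top of each replicate list, cut to the length of the optimal list, 17 of the 21 were found in replicate 1, 11 in replicate 2 and 9 in both. Since the optimal list was made from the same reads, these overlaps are no independent check.

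A full site lay within 50 bp of the summit in 18 of the 21 linked peaks (85.7%, exact 95% interval 63.7 to 97.0%), beside 78.7% of all nuclear optimal peaks. In side windows it was found for 2 of the 21 and for 2.22% of all. The interval of the linked peaks includes the share over all peaks. The 23 sites had centres from 0.5 to 39.5 bp from the summit, with a median of 13.5 bp. The CRE palindrome was at 7 linked peaks (33.3%, beside 39.5% of all), the C/EBP palindrome at 5 (23.8%, beside 16.4%), the hybrid at 4 (19.0%, beside 9.46%) and the CRE-like site at 3 (14.3%, beside 11.8%). The PAR palindrome and the composite were at none, and at 3.45% and 1.84% of all peaks.

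Seen from the sites, the member windows hold 112 full-site matches in 54 members, and 23 of them (20.5%) lie within 50 bp of an optimal summit, beside 13.1% of the 17268 matches in the nuclear genome. For the C/EBP palindrome this was 6 of 10 (60.0%, beside 27.1%). Its 4 copies that are not at an optimal summit lie in or near grl-6, grl-7, grl-20 and ptr-10. For the CRE palindrome it was 10 of 41 (24.4%, beside 18.9%), and for the composite 0 of 25 (beside 1.05%). Most matches in these genes were thus not at an optimal peak.

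The median signal was highest for peaks with 2 or more full sites. The 5 linked peaks with 2 full sites had a median signal of 186, those of ptr-18, ptr-12, ptr-17, grl-16 and ptr-5, whereas the 13 with 1 site had a median of 28.6 and the 3 with none 25.7. Among the other nuclear optimal peaks the medians were 99.3 for the 207 with 2 or more sites, 38.1 for the 1829 with 1 and 32.1 for the 553 with none. Of the 5 linked peaks with signals over 100, 4 had 2 sites, and of the other 212 peaks with signals over 100, 102 (48.1%) had 2 or more. This order was noticed after the values were seen. Single peaks did not always follow it. The ptr-5 peak has 2 sites and a signal of 38.8, the che-14 peak has 1 site and a signal of 150.2, and the 4 optimal peaks of highest signal (577 to 1224), none of them linked, have 0 sites.

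**Figure D5:**
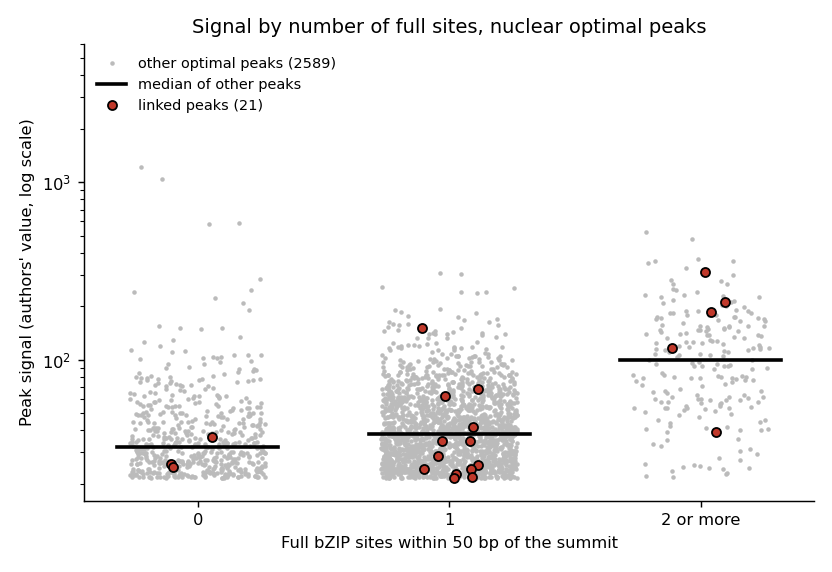
Signal (log axis, authors' units) of the 21 linked peaks (red) and the other 2589 nuclear optimal peaks (grey) by number of full bZIP sites within 50 bp of the summit, with the medians of the other peaks as black bars. Of the 5 linked peaks with 2 sites, 4 lie above the bar at 99.3.

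Below the optimal threshold the pooled list held 130 more peaks linked to members. A full site lay at 16 of them (12.3%), beside 8.87% of all 27362 pooled peaks below the threshold. Of the 130, 10 (7.69%) were overlapped in both replicate lists, beside 9.03% of all below the threshold, and 39 (30%) in neither, beside 33.5%. The unlinked members with the highest of these signals were ptr-22 (20.3, coding exon 7), grl-8 and grl-9, which share a peak of 17.8, grd-4 (17.6), grl-23 (16.3) and ptr-24 (14.7). The peaks of ptr-22, of grl-8 with grl-9 and of ptr-24 hold a CRE palindrome, and those of grd-4 and grl-23 hold no full site. For grl-4 there is a second pooled peak, 643 bp upstream, with a signal of 20.1 and a CRE-like site.

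The values on either side of the thresholds were close. The lowest linked signal was 21.6 in ptr-18, and the highest below the threshold at an unlinked member was 20.3 in ptr-22. By distance, the grl-16 summit lay 1857 bp upstream and was linked, and a summit 2131 bp upstream of grl-27 was not, with a signal of 27.9 and a full site. Farther out, summits lay 3474 bp upstream of ptr-11 (53.3), 3884 bp upstream of grl-13 (79.7) and 4310 bp upstream of ptr-12 (110.5).

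Lists of other sterol-sensing and Hedgehog pathway genes and of molting and apical matrix genes were looked up by the same linking rule. Of 14 other sterol-sensing and pathway genes 3 were linked (21.4%, 4.66 to 50.8%). They were qua-1, another Hog-domain gene, with a peak of 39.8 in coding exon 3, and the kinase genes kin-1 (75.2) and gsk-3 (25.1). Only the gsk-3 summit had a full site, a hybrid. There was no link for tra-1, the worm relative of the Gli factors that act downstream of Hedgehog in other animals, nor for daf-6 and ptd-2, which encode further Patched-like proteins.

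Of 22 molting and apical matrix genes, 6 were linked (27.3%, 10.7 to 50.2%). They were the nuclear receptor gene nhr-25 (68.8 and 38.9), the peroxidase gene mlt-7 (51.7 and 51.5), bli-5 (42.03), lin-42 (30.8), mlt-8 (23.5) and the fibrillin-like gene fbn-1 (22.7). Full sites lay at 6 of their 8 peaks. Of the 156 col- genes, which encode cuticle collagens, 13 were linked (8.33%, 4.51 to 13.8%). The col- share lay under that of all genes, and the molting list and the members lay above it, in each case without a test. Median windows were 8113 bp for the sterol-sensing and pathway list, 6957.5 bp for the molting list and 3220 bp for col- genes. Per 100 kb of window the sterol-sensing list had 1.64 optimal peaks, the molting list 4.35 and col- genes 2.31, against 2.62 for all protein-coding genes.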

How the data were processed

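The authors deposited peak lists in narrowPeak format on ce11 and ce10. Each replicate list, per the file headers, is unthresholded and was made from that replicate's alignments and a control, the pooled list from the alignments of both, and the optimal list by the irreproducible discovery rate (IDR). No source used here gives the caller, the aligner, the filters or the IDR cutoff. The deposited signal of a peak is the enrichment value of the authors' caller, and it was used to describe and rank peaks within a list. Lists are scaled separately. The control, alignments and tracks were not analysed here.

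ce11 coordinates were used throughout, 1-based, with Ensembl release 115 genes and the WBcel235 genome of the same coordinates. Gene windows ran from 2000 bp upstream to the gene end. Sites were counted wholly within 50 bp of a summit, and in windows centred 250 bp away alternately left and right. Replicate peaks were matched by an overlap of at least 1 bp. Members, lists and site patterns were chosen with earlier results of these data known. Text names every linked member, the 6 unlinked members of highest pooled signal, the linked genes of the related lists and the 5 peaks nearest to the ptr-18 peak in signal. Other named genes were chosen after their values were seen. Intervals are exact at the 95% level. Python 3.11.15, pandas 2.3.3, numpy 2.4.6 and scipy 1.17.1 were used, and linking and site counting were tested on simulated data.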

Additional observations from a re-analysis of the deposited data

How the results depend on the processing

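The number of linked members (20) and of linked peaks (21) fell to 12 and 11 for promoter summits only, meaning up to 200 bp inside the gene, and to 9 and 9 for the 50% of optimal peaks with the higher signal. They rose to 33 and 37 for the top 5000 pooled peaks. With 1000 bp upstream they were 15 and 16, and grl-4, grl-16, grl-17, grl-25 and ptr-17 were no longer linked. With 5000 bp upstream they were 27 and 30. The share of all protein-coding genes linked (11.6%) became 9.54% with 1000 bp upstream, 17.6% with 5000 bp, 5.9% for promoters, 12.2% by peak overlap, 6.0% for the higher-signal 50%, 20.9% for the top 5000 pooled peaks and 9.41% for peaks overlapped in both replicate lists, an alternative chosen after seeing the data. The median signal (35.0) became 116 for the higher-signal 50% and 22.6 for the top 5000. The share of linked peaks with a full site (85.7%) became 100% for the higher-signal 50%, 61.9% within 25 bp and 57.1% for the CRE and C/EBP palindromes alone. The number overlapped in both replicate lists (18) became 9 among the top peaks of each list. With as many top peaks of the other replicate's own list in place of the optimal list, leaving out a replicate in turn gave 14 to 20 genes, 16 to 21 peaks, 11.7% of all genes, median signals of 13.6 to 22.5 and site shares of 62.5 to 81.0%. Without replicate 1, 11 of the 20 members remained linked, and grd-6, grl-1, grl-5, grl-17, grl-29, grl-30, ptr-4, ptr-11 and ptr-21 did not. Without replicate 2, 17 remained, and grl-1, grl-25 and ptr-11 did not. The causes were not tested. The background share was not computed with summits inside other coding genes left out. No paired analysis was possible because there is 1 group. Depth is unknown, so a member without a peak is only not detected.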

Other observations

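Chromosome I holds 10 of the 85 members and 6 of the 21 linked peaks, among them 4 of the 5 with signals over 100, those of ptr-12, ptr-17, che-14 and grl-16. Of all nuclear optimal peaks 18.7% lie on it, and of those with signals over 100, 25.8%. Chromosome V holds 32 members and 6 linked peaks, none above 41.6, and 19.5% of all nuclear optimal peaks with 14.3% of those over 100. These counts were noticed after the values were seen and were not tested.

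In the deposited ce10 version of the optimal list, with 2473 peaks and a lowest signal of 22.7, a peak with a signal within 0.01 was found for 18 of the 21 linked peaks. The peaks of grl-1, ptr-4 and ptr-18 in intron 3 have ce11 signals under that lowest value. The match was described by signal and not by position. Signals are dense in the low range, with 32.03% of all nuclear optimal peaks at 30 or less. An unrelated peak can therefore match, and the count does not show that the same peaks are in both versions.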
